A study of Homo sapiens with 8 samples.

Results

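The genes described here lie on the distal short arm of human chromosome 1, from its end to position 44820951 of the hg19 build, the end of ERI3. The members are all 687 loci of the deposited expression table, of 27757, that end at or before that position, with 70 rows that hold small RNAs left out. The region was chosen because its loci were lower in SYK knockout (SYK-KO) than in SYK wild-type (SYK-WT) libraries. The differences between genotypes are therefore given as a description, without a test, while the responses to epidermal growth factor (EGF) were not used in the choice and were tested.

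RNA of OVISE cells, an established line of ovarian clear cell carcinoma, was sequenced from 4 groups of 2 libraries each. SYK-WT and SYK-KO cells were left untreated, and SYK-WT EGF and SYK-KO EGF cells received EGF at 50 ng/ml for 24 h. SYK codes for a cytoplasmic tyrosine kinase, and it was targeted in exon 2 by Cas9 nickase with a pair of guides. Transfected OVISE cells were selected with puromycin and grown from single cells, and the labels give neither the number of clones behind each genotype nor whether replicates were separate cultures. All p-values are thus set against library-to-library spread alone, and that spread could be technical. Levels are in FPKM, the authors' count of fragments scaled to transcript length and to library size. How the libraries were scaled was not stated in the sources used here. Differences were taken between group means after a log2(FPKM + 1) transformation, a scale on which weakly expressed genes appear to change less than they do.

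The distal short arm of chromosome 1 is dense in genes and rich in G and C. It carries genes of many unrelated functions, among them the chromatin remodelling subunit ARID1A, which is often mutated in ovarian clear cell carcinoma, the EGF receptor inhibitor ERRFI1 and the ephrin receptor EPHA2. The genes of such an arm are not linked by function, and the response to a growth factor is mostly set gene by gene. EGF binds its receptor, starts signalling through the MAP kinase and PI3 kinase pathways, and induces early genes and feedback inhibitors.

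The 2 guides define the genotype and are shown as the labels give them, with the bases nearest the PAM in capitals.
Guide 1: cggacaggGCGAAGCCACCC
Guide 2: cacaccacTACACCATCGAG
In GENCODE transcripts, a search for up to 3 mismatches beside an NGG motif found SYK without mismatch for each guide. Guide 1 had 3 further genes with a site at 3 mismatches, LINC01252 on chromosome 12 and the overlapping non-coding genes AL390719.1 (chr1:1059734-1069355, plus strand, GRCh38) and AL645608.8 (chr1:1062208-1063288, minus strand, GRCh38). Those on chromosome 1 lie within the stretch described here in that build, but neither name is among the 681 members with a symbol. Guide 2 had no further gene. The search covered exons only, and whether any of these sites was cut was not tested.

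Promoters are shown for the 2 genes furthest above and the 2 furthest below the median difference of the region among the named genes in the RefSeq promoter table, and for ERRFI1 and SH3BGRL3, which have the largest EGF rises, summed over both genotypes, among the named genes in that table. No sequence is shown for RAP1GAP and SPSB1. Each stretch is the 250 bases before the annotated start (GRCh38.p14), on the strand of the gene. Capitals mark the letters GGGCGG (the GC box bound by SP1) and CCAAT on either strand.
IFFO2, chr1:18956677-18956926, minus strand: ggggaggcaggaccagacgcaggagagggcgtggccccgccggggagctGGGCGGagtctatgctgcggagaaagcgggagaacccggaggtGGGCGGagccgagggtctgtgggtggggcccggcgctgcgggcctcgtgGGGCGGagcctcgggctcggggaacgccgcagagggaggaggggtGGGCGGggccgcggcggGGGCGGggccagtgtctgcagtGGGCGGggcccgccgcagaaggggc
ALDH4A1, chr1:18902556-18902805, minus strand: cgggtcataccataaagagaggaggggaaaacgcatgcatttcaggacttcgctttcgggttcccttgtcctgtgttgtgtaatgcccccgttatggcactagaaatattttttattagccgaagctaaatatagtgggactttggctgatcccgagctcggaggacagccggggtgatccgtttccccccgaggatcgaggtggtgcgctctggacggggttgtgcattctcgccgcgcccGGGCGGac
GRHL3, chr1:24319107-24319356, plus strand: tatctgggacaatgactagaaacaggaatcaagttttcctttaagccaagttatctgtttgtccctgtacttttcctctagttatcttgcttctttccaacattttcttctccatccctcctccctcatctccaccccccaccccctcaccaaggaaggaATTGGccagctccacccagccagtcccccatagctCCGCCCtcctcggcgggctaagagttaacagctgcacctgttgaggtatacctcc
THEMIS2, chr1:27872294-27872543, plus strand: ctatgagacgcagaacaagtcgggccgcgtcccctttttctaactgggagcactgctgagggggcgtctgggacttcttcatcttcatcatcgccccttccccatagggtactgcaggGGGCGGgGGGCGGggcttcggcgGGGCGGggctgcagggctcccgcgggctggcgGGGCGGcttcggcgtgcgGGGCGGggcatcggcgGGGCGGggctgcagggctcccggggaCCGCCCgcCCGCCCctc
ERRFI1, chr1:8026310-8026559, minus strand: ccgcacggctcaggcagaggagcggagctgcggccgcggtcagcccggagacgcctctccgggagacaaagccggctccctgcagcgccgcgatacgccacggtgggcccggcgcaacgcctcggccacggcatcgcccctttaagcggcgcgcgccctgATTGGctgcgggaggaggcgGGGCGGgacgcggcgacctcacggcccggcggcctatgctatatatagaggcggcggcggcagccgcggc
SH3BGRL3, chr1:26279836-26280085, plus strand: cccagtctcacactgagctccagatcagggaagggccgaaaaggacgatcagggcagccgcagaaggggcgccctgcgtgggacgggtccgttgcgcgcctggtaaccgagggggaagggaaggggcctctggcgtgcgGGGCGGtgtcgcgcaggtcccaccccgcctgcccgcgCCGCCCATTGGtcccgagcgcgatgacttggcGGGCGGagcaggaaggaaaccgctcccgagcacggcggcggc
IFFO2 and THEMIS2, on opposite sides of the region's median, both hold several GC boxes in this window, 6 and 8. ERRFI1, SH3BGRL3 and GRHL3 each hold a CCAAT box. GGGCGG was present in 74.9% of the 350 promoters matched among 413 tested member symbols, in 70.7% of those of other tested loci and in 44.6% of all 27305 promoters in the table. CCAAT was present in 37.4%, 37.1% and 35.7%. The AP-1 letters TGANTCA, bound by factors that EGF induces, were present in 4.6%, 4.3% and 7.8%. These shares were taken over the whole promoter sequence of each gene, without the cut to 250 bases. The median GC content of the whole sequences was 68.3% for members and 65.3% for other tested loci.

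Of the 687 members, 403 had 1 FPKM or more in 2 libraries or more and entered the fit, 284 did not, and 96 of those were listed at 0 in every library. Of the 403, 381 were protein-coding, 9 joined several symbols in 1 row, and 119 were listed with the same span as another row. Only such rows are called overlapping below, and spans shared in part were not counted. Since strand was not given in the sources used here, values of overlapping genes are uncertain. SYK itself was at 4.91 and 5.30 FPKM in SYK-WT, 3.11 and 3.43 in SYK-KO, 3.88 and 3.62 in SYK-WT EGF and 2.80 and 3.16 in SYK-KO EGF libraries, lower in each knockout group than in its wild-type group. Among markers of the line, PAX8 (148 to 234 FPKM), EPCAM (465 to 564), KRT8 (2396 to 5889) and KRT18 (1920 to 5188) were high in all 8 libraries, while CDH1 (61.4 to 90.8 in wild-type, 30.7 to 44.5 in knockout libraries) and NAPSA (4.16 to 5.37 and 0.787 to 1.26) were lower in the knockout. PTPRC, CD3E, PECAM1, VWF, CDH5, COL3A1 and DCN, markers of blood, vessel and connective tissue cells, were at or below 0.10 FPKM throughout, with COL3A1 and DCN listed at 0. CD79A, COL1A1 and WT1 were at or below 0.79 FPKM and CALB2 at 0.143 to 3.62. The part of these differences in the results was not tested. The SYK-WT libraries stood furthest apart, their replicates differing by a median of 0.15 (log2), where those of the remaining groups differed by 0.07 to 0.08.

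The members were lower in SYK-KO cells by a small amount, alike without and with EGF. The median difference was -0.19 untreated (middle 50% of loci from -0.38 to 0.00) and -0.20 with EGF (-0.39 to 0.01). On the rest of chromosome 1 the medians over 812 loci were -0.02 and -0.02, and on the other chromosomes they were 0.00 and -0.01. These pooled medians near 0 hide shifts in both directions. By whole chromosome, the medians ran from -0.13 untreated and -0.15 with EGF on chromosome 17 to 0.28 and 0.22 on chromosome X. On the long arm of chromosome 1, the windows named below had lower medians than the members. For the 288 members with a mean of at least 5 FPKM, the median SYK-KO level was 86.2% of the SYK-WT level untreated and 84.0% with EGF, against 97.1% and 95.4% on the rest of chromosome 1. RNA was taken from whole cultures, so fewer cells expressing a gene and less RNA per cell cannot be told apart. In 304 of 403 members (75.4%) the untreated difference was below 0, and in 301 (74.7%) that with EGF was, where the rest of chromosome 1 had 52.1% and 52.5%.

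**Figure D1:**
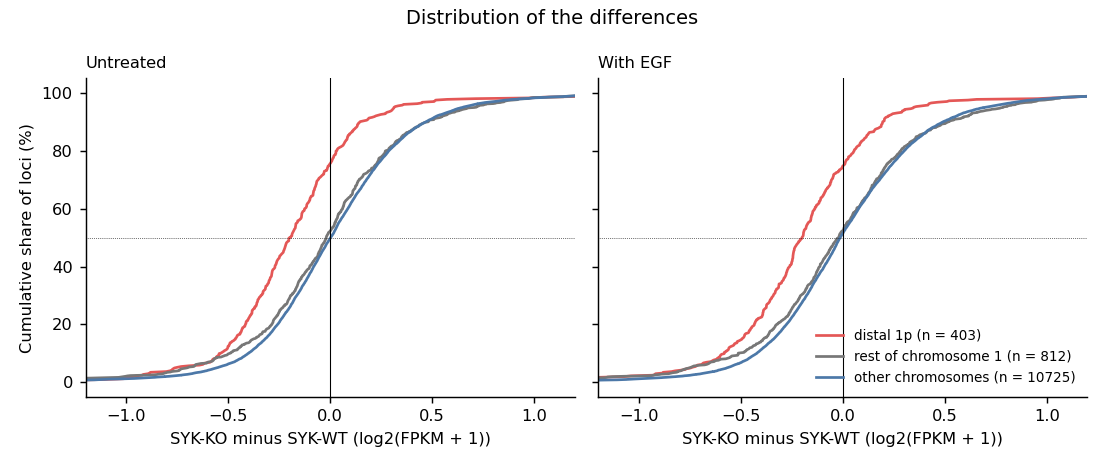
Cumulative share of loci (y axis, percent) against the SYK-KO minus SYK-WT difference (x axis, log2(FPKM + 1)), untreated on the left and with EGF on the right, for the 403 tested members, 812 loci on the rest of chromosome 1 and 10725 on other chromosomes. The curve of the members lies to the left and crosses 50% at -0.19 and -0.20, while the other curves cross near 0.

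Every library followed its genotype. Taken as the median deviation of the members from their mean over 8 libraries, minus the same on the rest of chromosome 1, the SYK-WT libraries were at 0.06 and 0.13 and the SYK-WT EGF libraries at 0.07 and 0.08. The SYK-KO libraries were at -0.07 and -0.08, and the SYK-KO EGF libraries at -0.09 and -0.08. Wild-type and knockout libraries thus did not overlap, but the region was chosen from this difference, so nothing is read from the separation. The pooled SD between replicates was 0.02, which may hold no spread between clones. The untreated shift against the rest of chromosome 1, -0.17, became -0.22 when SYK-WT replicate 1 was left out, and -0.12 when SYK-WT replicate 2 was.

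**Figure D2:**
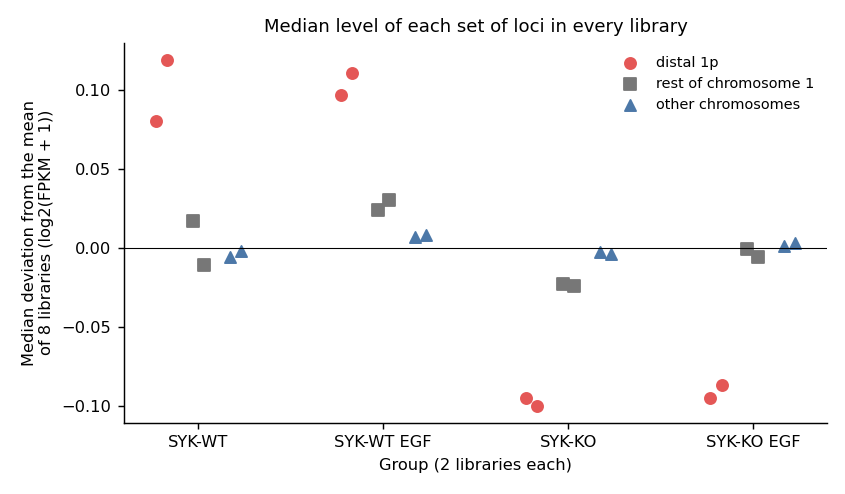
Median deviation of each set of loci from its mean over the 8 libraries (y axis, log2(FPKM + 1)) by group (x axis), 1 symbol per library, for distal 1p (circles), the rest of chromosome 1 (squares) and other chromosomes (triangles). Circles lie between 0.08 and 0.12 in the 4 wild-type libraries and between -0.10 and -0.09 in the 4 knockout libraries, while squares and triangles stay within 0.03 of 0.

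Among members, 154 (38.2%) had all 4 knockout libraries below all 4 wild-type libraries, where 20% of all tested loci did, and 19 (4.71%) had all 4 above, where 18.7% did. The limma fit placed 168 members past the threshold as lower untreated (20.2% of all loci tested) and 26 as higher (20.3%). With EGF it placed 175 as lower (22.5%) and 26 as higher (21.1%). Leaving out SYK-KO replicate 1 or 2 gave 89 or 90 lower and 14 or 16 higher untreated, and leaving out SYK-WT replicate 2 gave 45 higher. With EGF, leaving out SYK-WT EGF replicate 1 or 2 gave 103 or 110 lower and 15 or 16 higher, SYK-KO EGF replicate 1 gave 115 lower, and SYK-KO EGF replicate 2 gave 13 higher. Since the region was chosen from these differences, nothing is read from the counts. The untreated and EGF differences had the same sign in most members, 273 lower in both and 71 higher in both, and opposite signs in 59. Across the 403 genes, which are not independent, the differences correlated at r = 0.90 (Spearman's rho 0.82), and on the rest of chromosome 1 at r = 0.91. The comparisons use different libraries of the same cell populations.

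The shift was spread over most of the region. All 9 windows of 5 Mb in the region had a median below -0.1 in both comparisons, the lowest by the mean of both between 35 and 40 Mb (-0.285 untreated, -0.31 with EGF). Of 201 other windows in the genome with at least 20 loci, 50 were below -0.1 in both as well, and 3 lay at or below the lowest window of the region, of which those at 220 to 225 Mb and 230 to 235 Mb are on the long arm of chromosome 1. The region is therefore not alone in the genome in the size of its shift. A running median of 21 loci stayed below 0 at 99.7% of member positions, between -0.43 and 0.02 untreated and between -0.44 and 0.00 with EGF, with its highest points at 28.1 Mb and 42.8 Mb, respectively. By position, from 0 to 10, 10 to 20, 20 to 30 and 30 to 44.82 Mb, the medians were -0.23, -0.17, -0.18 and -0.18 untreated and -0.19, -0.17, -0.25 and -0.20 with EGF.

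Single genes varied widely around the shift, with an interquartile range of 0.37 untreated and 0.39 with EGF, beside 0.46 and 0.47 on the rest of chromosome 1. Within 0.25 of the median lay 65% of members untreated and 60.5% with EGF, against 53.7% and 53.2% on the rest of chromosome 1 around its own median. More than 0.5 above the median were 24 members untreated and 25 with EGF, and more than 0.5 below were 23 and 24. By mean level, the untreated medians ran from -0.16 in 46 members under 2 FPKM to -0.23 in 160 members at 5 to 20 FPKM. With EGF the members under 2 FPKM were at 0.03, and those at or above 100 FPKM at -0.27. The region has GC-rich transcripts (median 55.1%, against 46.8% on the rest of chromosome 1), and within the low, middle and high class of GC content the untreated medians were -0.23, -0.22 and -0.14, against -0.06, 0.07 and 0.01 on the rest of chromosome 1. Short transcripts had an untreated median of -0.09 and long transcripts of -0.26, against 0.11 and -0.09 on the rest of chromosome 1.

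**Figure D3:**
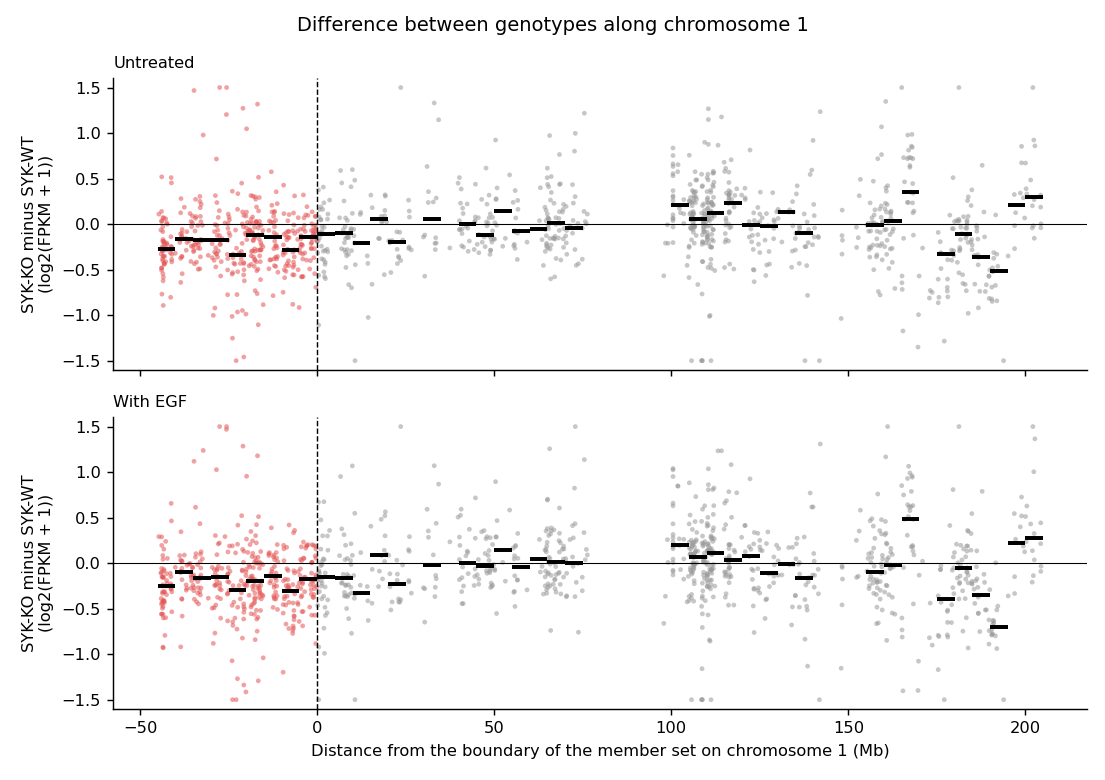
SYK-KO minus SYK-WT difference (y axis, log2(FPKM + 1)) of each tested locus of chromosome 1 against its distance from the boundary of the region (x axis, Mb), untreated above and with EGF below, members in red and other loci in grey, with the median of each 5 Mb window as a black bar. Points beyond the axis are drawn at its limit. All bars left of the boundary are below 0, those just right of it remain below 0, and the lowest bars lie far right on the long arm.

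No sharp edge lay at the boundary that defines the region. Between 44.82 and 55 Mb, past the boundary, 66 loci had medians of -0.11 untreated and -0.16 with EGF, and from 55 to 65 Mb 25 loci had 0.02 and -0.09. The running median first reached 0 at HOOK1 (60.3 Mb) untreated and at PATJ (62.6 Mb) with EGF. The best division of chromosome 1 into 2 levels, by absolute deviations from their medians, fell at 75.2 Mb in both comparisons, between CRYZ and SLC44A5, with medians of -0.18 and 0.00 untreated and -0.19 and 0.00 with EGF. That division removed 3.71% and 3.5% of the absolute deviation, and nearly equal divisions lay from 67.9 to 85.0 Mb and from 55.7 to 79.1 Mb. Without SYK-WT replicate 2 the untreated position was 109.6 Mb. With loci of low level included it was 45.3 Mb untreated and 45.7 Mb with EGF, so its place depends on which loci enter. On the long arm, the window from 220 to 225 Mb had medians of -0.33 and -0.40, and that from 230 to 235 Mb -0.36 and -0.35.

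Genes next to the boundary did not divide by side. Below it, DPH2, an enzyme of diphthamide synthesis, was at 12.9 and 10.4 FPKM in SYK-WT, 6.61 and 6.95 in SYK-KO, 14 and 12.8 in SYK-WT EGF and 6.70 and 6.88 in SYK-KO EGF libraries, without overlap between genotypes. Its differences, -0.69 untreated and -0.88 with EGF (SE 0.102), were the lowest of the 6 tested genes nearest the boundary on this side. ATP6V0B, a proton pump subunit, B4GALT2, a galactosyltransferase, CCDC24, DMAP1, a chromatin protein, and ERI3, an RNA exonuclease, lay between -0.19 and -0.01 untreated. Above the boundary, the ubiquitin ligase RNF220 was at -0.32 and -0.47, and TMEM53 was at -0.18 in each comparison. The stress kinase gene PLK3 was at 7.23 and 7.82 FPKM in SYK-WT, 2.92 and 2.97 in SYK-KO, 14.6 and 15.2 in SYK-WT EGF and 4.28 and 3.84 in SYK-KO EGF libraries, with differences of -1.11 and -1.65 (SE 0.077). KIF2C, a mitotic kinesin, was on the other side, at 0.38 and 0.67, and BTBD19 reached 1.2 FPKM at most.

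Among members with a group mean of at least 5 FPKM, the 10 named next stood furthest above the region's shift. All were higher in every knockout library than in any wild-type library, as 18.7% of all tested loci were. They were picked by these differences, so nothing is read from this. ALDH4A1, ID3, NCMAP and GFOD3P met the minimum only through the knockout groups. IFFO2, which codes for an intermediate filament family protein, was at 4.34 and 5.33 FPKM in SYK-WT, 17.5 and 16.3 in SYK-KO, 8.39 and 9.86 in SYK-WT EGF and 27.9 and 29.3 in SYK-KO EGF libraries. The differences were 1.62 and 1.55 (SE 0.105). ALDH4A1, a mitochondrial enzyme of proline breakdown that lies next to IFFO2, was at 3.68 and 4.78, 11.0 and 11.0, 4.01 and 5.16, and 13.7 and 15.1 FPKM in the same order, with differences of 1.2 and 1.47 (SE 0.128). IFFO2 and ALDH4A1 sit in a 5 Mb window with a median of -0.18 untreated. MFAP2, a microfibril protein in the same window, did not reach the minimum of 5 FPKM and was chosen after its values were seen. It was listed at 0 in all 4 wild-type libraries and was at 4.40 and 4.97 FPKM in SYK-KO and 3.57 and 4.91 in SYK-KO EGF libraries. RBP7, a retinol-binding protein, was at 4.23 and 6.42, 19.2 and 13.7, 7.38 and 6.34, and 18.1 and 14.2 FPKM (1.47 and 1.12, SE 0.207). DHRS3, a retinal reductase, was at 8.65 and 12.0, 22.6 and 19.6, 6.49 and 7, and 16.1 and 18.4 FPKM (0.98 and 1.24, SE 0.143). Both RBP7 and DHRS3 handle retinoids. ID3, an inhibitor of basic helix-loop-helix factors and a target of BMP signalling, was at 2.63 and 2.42, 7.16 and 7.89, 2.30 and 3.40, and 8.78 and 7.80 FPKM (1.27 and 1.29, SE 0.135). IFI6, an interferon-induced gene, was at 58.9 and 39.7 FPKM in SYK-WT, at a mean of 122 ± 4.0 (SD, n = 2) in SYK-KO, at 40.8 and 34.4 in SYK-WT EGF and at 93.2 and 79.4 in SYK-KO EGF libraries (1.32 and 1.18, SE 0.173). NCMAP (1.05 and 0.95), GFOD3P (0.51 and 0.66), the sphingomyelinase-like gene SMPDL3B (0.51 and 0.51) and SERINC2 (0.57 and 0.39) were higher by less. ALDH4A1, DHRS3 and GFOD3P overlap other rows.

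By the same minimum, 9 of the 10 genes furthest below the shift are described here. All were lower in every knockout library than in any wild-type library, as 20% of all tested loci were. These too were picked by the differences, so nothing is read from this. RAP1GAP, GRHL3, GJB5 and ZC3H12A met the minimum only through the wild-type groups. RAP1GAP, which switches off the small GTPase RAP1, was at 11.2 and 18.9 FPKM in SYK-WT, 3.34 and 3.84 in SYK-KO, 13.5 and 17.4 in SYK-WT EGF and 2.75 and 3.46 in SYK-KO EGF libraries, with differences of -1.76 and -2.00 (SE 0.221). It lies in the window from 20 to 25 Mb, whose median was -0.32 untreated. GRHL3, a transcription factor of epithelial differentiation, was at 6.57 and 6.96, 3.08 and 2.75, 9.75 and 9.63, and 3.20 and 2.83 FPKM (-0.99 and -1.41, SE 0.082). THEMIS2, a signalling adaptor known from B cells and macrophages, was at 21.3 and 26.7, 11.6 and 9.60, 39.3 and 40.9, and 15.8 and 15.7 FPKM (-1.11 and -1.29, SE 0.116). GJB5, a gap junction protein of surface epithelia, was at 4.79 and 5.82, 2.57 and 2.92, 7.72 and 8.39, and 2.78 and 3.12 FPKM (-0.75 and -1.2, SE 0.104). GRHL3 and GJB5 both belong to epithelial surface programmes. CAMK2N1, an inhibitor of the kinase CaMKII (-1.01 and -1.07), the receptor phosphatase PTPRU (-0.88 and -1.04), TMEM51 (-1.0 and -0.88), the matrix protein VWA1 (-0.89 and -0.93) and ZC3H12A, an RNase that degrades inflammatory mRNAs (-0.88 and -0.74), completed the group. GRHL3, TMEM51 and ZC3H12A overlap other rows.

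**Figure D4:**
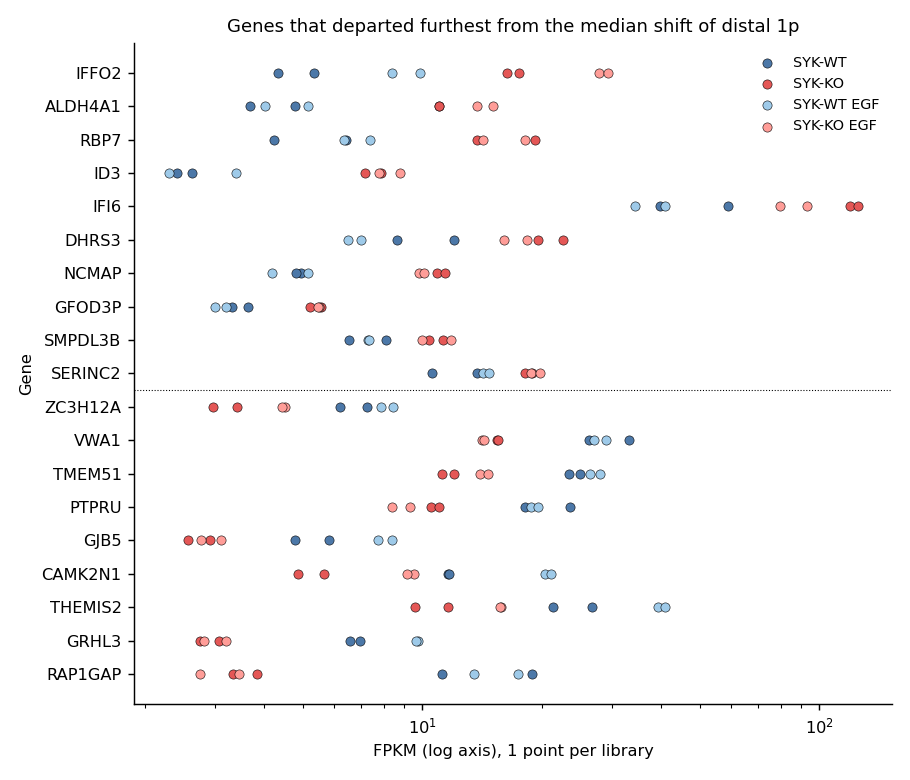
FPKM (x axis, log scale) of the 10 members furthest above (upper block) and 9 of the 10 furthest below (lower block) the region's median difference, among those with a group mean of at least 5 FPKM, 1 point per library, coloured by group. The genes were picked by the difference between genotypes. In each of them the 4 knockout points lie on 1 side of the 4 wild-type points, and the smallest distances are in SERINC2 and SMPDL3B.

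By function, the median of each of the 8 gene lists drawn up for the region was below 0. The median over all members was -0.19 untreated and -0.20 with EGF, and that over all tested loci -0.01 and -0.02. Since the region was chosen for being lower, lists lower than all tested loci show nothing about function. All of the lists were chosen with earlier results known. In RNA processing and translation, 30 of 33 tested genes were lower in both comparisons (medians -0.23 and -0.26). Of all tested members 67.7% were, and of all tested loci 43.7%. Of its most abundant genes, RPL11 was at 1737 and 1862 FPKM in SYK-WT and 1782 and 1739 in SYK-KO libraries, which overlap, and RPL22, EIF3I and SSU72 were at -0.11, -0.09 and -0.19 untreated and at -0.10, -0.27 and -0.16 with EGF. In ubiquitin, proteasome and folding, 18 of 20 were lower in both (-0.28 and -0.28), among them the splicing-associated isomerase gene PPIH (-0.27 and -0.29), its relative PPIE (-0.13 and -0.20), the cochaperone DNAJC8 (-0.17 and -0.27) and the proteasome subunit PSMB2 (-0.09 and -0.25).

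In transcription and chromatin, 31 of 41 were lower in both (-0.28 and -0.18). HDAC1, a histone deacetylase, was at 131 and 144 FPKM in SYK-WT, 100.3 and 99.2 in SYK-KO, 129 and 132 in SYK-WT EGF and 97.7 and 100 in SYK-KO EGF libraries, without overlap (-0.46 and -0.39, SE 0.064). YBX1, an RNA- and DNA-binding protein, was at -0.21 and -0.34, HMGN2, a nucleosome-binding protein, at -0.18 and -0.05, and ZNF593 at -0.11 and -0.14. In the cancer genes, 19 of 23 were lower in both (-0.26 and -0.24). ARID1A was at 3.93 and 4.74 FPKM in SYK-WT, 2.77 and 2.94 in SYK-KO, 3.11 and 3.15 in SYK-WT EGF and 2.40 and 2.58 in SYK-KO EGF libraries (-0.46 and -0.24, SE 0.092). Its levels did not overlap between genotypes within a treatment or across both. SDHB, a subunit of mitochondrial complex II, was at -0.22 and -0.25.

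In receptors, ligands and signalling, 20 of 27 were lower in both (-0.31 and -0.28). AGRN, a matrix proteoglycan that organises receptors, was at 273 and 341 FPKM in SYK-WT, 210.3 and 226 in SYK-KO, 244 and 273 in SYK-WT EGF and 168 and 181 in SYK-KO EGF libraries (-0.48 and -0.56, SE 0.111). EPHA2, a receptor tyrosine kinase for ephrins, was at 164 and 176, 137 and 133, 198 and 203, and 174 and 177 FPKM (-0.33 and -0.19, SE 0.061). The G protein subunit GNB1 was at -0.35 and -0.32, and the actin capping protein CAPZB at 0.11 and -0.05. In mitochondria, 14 of 20 were lower in both (-0.20 and -0.28), with PARK7, a sensor of oxidative stress, at -0.08 and -0.28, the respiratory subunit NDUFS5 at 0.07 and -0.09 and the ATP synthase inhibitor ATP5IF1 at 0.03 and -0.06.

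In metabolic enzymes and transporters, 13 of 23 were lower in both (-0.16 and -0.16), where 67.7% of all tested members were. ENO1, a glycolytic enzyme that overlaps another row, was at 934 and 1188 FPKM in SYK-WT, 1101 and 1184 in SYK-KO, 1071 and 1080.1 in SYK-WT EGF and 1025 and 1123 in SYK-KO EGF libraries, which overlap. The glucose transporter gene SLC2A1 was at 151 and 213, 158 and 163, 164 and 165, and 154 and 178 FPKM, overlapping too. PLOD1, a collagen lysyl hydroxylase, was at 0.03 and -0.13, and ECE1, which processes endothelin, at -0.44 and -0.60. In the cell cycle and genome maintenance list, 9 of 18 were lower in both (-0.12 and -0.17). CDC42, a GTPase of cell polarity, was at 140 and 147, 96.1 and 103, 164 and 157, and 113 and 117 FPKM (-0.52 and -0.48, SE 0.065), and AURKAIP1 at 0.07 and -0.25.

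EGF moved individual members of the region up and down, and the members' medians stayed near 0, at 0.03 in SYK-WT and 0.00 in SYK-KO cells. In SYK-WT cells, limma with Benjamini-Hochberg adjustment over 12112 loci called 70 members higher (17.4%, beside 14.7% of all tested loci) and 43 lower (10.7%, beside 12.1%). In SYK-KO cells it called 35 higher (8.68%, beside 6.67%) and 12 lower (2.98%, beside 5.13%). Rises were shared by 30 members and falls by 8. A further 40 rises and 35 falls passed in SYK-WT cells and not in SYK-KO cells, and 5 rises and 4 falls the reverse, which does not show that these responses differ. Of the 55 members with a q-value below 0.05 for EGF in SYK-WT cells in the authors' deposited table, 52 were called here.

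These counts depended on single libraries. In SYK-WT cells, rises numbered 27 without either SYK-WT EGF library. Falls there numbered 86 without SYK-WT replicate 1, 28 without SYK-WT replicate 2 or either SYK-KO library, and 9 and 11 without SYK-WT EGF replicates 1 and 2. In SYK-KO cells, rises numbered 56 and falls 49 without either SYK-WT library. Rises there numbered 14 and 9 without SYK-KO replicates 1 and 2, and 10 and 11 without SYK-KO EGF replicates 1 and 2. Falls numbered 2 and 0 without SYK-KO replicates 1 and 2, 1 and 3 without SYK-KO EGF replicates 1 and 2, and 6 without either SYK-WT EGF library.

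ERRFI1, which binds the EGF receptor and inhibits it, rose in both genotypes. It was at 29.9 and 34.5 FPKM in SYK-WT, 62.5 and 55 in SYK-WT EGF, 28.2 and 27.4 in SYK-KO and 57.8 and 57.5 in SYK-KO EGF libraries. The rise was 0.85 in SYK-WT (SE 0.088, limma adjusted p = 0.00068) and 1.03 in SYK-KO cells (adjusted p = 0.000621), and treated and untreated libraries did not overlap. SPSB1, an adaptor of a ubiquitin ligase, was at 12.2 and 12.4 FPKM in SYK-WT, 25.6 and 27.3 in SYK-WT EGF, 11.7 and 12.4 in SYK-KO and 22.0 and 23.9 in SYK-KO EGF libraries. It rose by 1.04 (SE 0.071, adjusted p = 0.000132) and 0.88 (adjusted p = 0.000517). SH3BGRL3, a small thioredoxin-like protein, was at 82.9 and 88.8, 178 and 177, 97.7 and 84.1, and 147 and 150.3 FPKM in the same order. It rose by 1.04 (SE 0.08, adjusted p = 0.000207) and 0.71 (adjusted p = 0.002). None of these calls ended under any alternative tried.

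GJB5, the gap junction gene described above, rose by 0.53 in SYK-WT cells (SE 0.104, limma adjusted p = 0.00961; 0.0746 without SYK-WT EGF replicate 2) and was at 0.08 in SYK-KO cells (adjusted p = 0.692). The difference between the responses, -0.45 (SE 0.147), did not pass (limma adjusted p = 0.465).

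Some of the genes that departed from the regional shift also passed the EGF threshold. ALDH4A1, RBP7, ID3, IFI6, NCMAP, GFOD3P, SMPDL3B, SERINC2, RAP1GAP, VWA1 and PTPRU passed it in neither genotype. IFFO2 rose by 0.80 in SYK-WT (SE 0.105, limma adjusted p = 0.00181) and 0.73 in SYK-KO cells (adjusted p = 0.00526), from the levels given above. Its call in SYK-KO cells ended when replicate 2 of either the SYK-KO (0.0605) or the SYK-KO EGF group (0.0501) was left out. CAMK2N1 was at 11.6 and 11.7 FPKM in SYK-WT, 20.4 and 21.1 in SYK-WT EGF, 5.67 and 4.88 in SYK-KO and 9.55 and 9.14 in SYK-KO EGF libraries, and rose by 0.78 (SE 0.078, adjusted p = 0.000578) and 0.72 (adjusted p = 0.00164). Its treated knockout libraries thus stayed below the untreated wild-type libraries. THEMIS2 rose by 0.73 in SYK-WT (SE 0.116, adjusted p = 0.00409) and 0.54 in SYK-KO cells (adjusted p = 0.0233). The latter call ended without a filter on low values (0.0619), and when SYK-KO replicate 2 (0.174), either SYK-KO EGF library (0.131 and 0.112) or either SYK-WT EGF library (0.0501 and 0.0502) was left out. GRHL3 rose by 0.46 in SYK-WT cells (adjusted p = 0.00638), a call lost without SYK-WT EGF replicate 1. In SYK-KO cells GRHL3 was at 0.04 (adjusted p = 0.833). The difference between its responses, -0.43 (SE 0.116), did not pass (limma adjusted p = 0.378). STK40, a pseudokinase, was not among the genes furthest from the shift. It rose by 0.77 in SYK-WT (SE 0.079, adjusted p = 0.000632) and 0.51 in SYK-KO cells (adjusted p = 0.00706). The latter call ended when SYK-KO replicate 2 (0.0776) or either SYK-KO EGF library (0.0625 and 0.0504) was left out.

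EPHA2 rose by 0.24 in SYK-WT (SE 0.061, limma adjusted p = 0.0256) and 0.38 in SYK-KO cells (adjusted p = 0.00836). The SYK-WT call did not pass without either SYK-KO library (0.0528 and 0.0526) or either SYK-WT EGF library (0.102 and 0.143), and the SYK-KO call without any of the 4 SYK-KO libraries (0.0546 to 0.089). SFN, the cell cycle inhibitor 14-3-3 sigma, was at 327 and 413 FPKM in SYK-WT, 542 and 559 in SYK-WT EGF, 314 and 294 in SYK-KO and 418 and 398 in SYK-KO EGF libraries. It rose by 0.58 (SE 0.105, adjusted p = 0.00674; 0.0516 without SYK-WT EGF replicate 2) and by 0.42 (adjusted p = 0.0387). The latter call did not pass without any of the 4 SYK-KO or either SYK-WT EGF library (0.0756 to 0.223). LAPTM5, a lysosomal membrane protein whose row overlaps another, was at 2.78 and 2.97 FPKM in SYK-KO and 6.03 and 5.14 in SYK-KO EGF libraries. There it rose by 0.76 (SE 0.088, adjusted p = 0.00208). In SYK-WT libraries it was at 4.52 and 4.37 FPKM, and in SYK-WT EGF libraries at 5.03 and 5.38. That difference, 0.19, did not pass (adjusted p = 0.148).

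Fewer falls than rises after EGF were called among the members. Among all tested loci too, 12.1% fell and 14.7% rose in SYK-WT cells, and 5.13% and 6.67% in SYK-KO cells. The members' counts depended on single libraries, as given above. MEGF6, with EGF-like repeats, was at 9.53 and 15.3 FPKM in SYK-WT, 4.75 and 5.10 in SYK-WT EGF, 6.22 and 6.81 in SYK-KO and 3.88 and 4.24 in SYK-KO EGF libraries. It fell by 1.15 in SYK-WT cells (SE 0.177, limma adjusted p = 0.00356), and its SYK-KO difference was -0.57 (adjusted p = 0.0795). KAZN, a protein of cell junctions, was at 24.5 and 27.8, 15.1 and 16.9, 22.6 and 22.1, and 14.5 and 16.3 FPKM in the same order. It fell by 0.68 in SYK-WT cells (SE 0.091, adjusted p = 0.00201) and by 0.51 in SYK-KO cells (adjusted p = 0.0118; 0.0837 to 0.0958 leaving out SYK-KO replicate 1, SYK-KO replicate 2, or the first SYK-KO EGF replicate). CLSTN1, a membrane protein that links cargo to kinesin, fell by 0.49 in SYK-WT (SE 0.082, adjusted p = 0.00491) and by 0.49 in SYK-KO cells (adjusted p = 0.00937; 0.0958 without SYK-KO replicate 2 and 0.0853 without SYK-KO EGF replicate 1). All of MEGF6, KAZN and CLSTN1 overlap other rows. EDN2, an endothelin, was at 11.2 and 6.98, 5.06 and 5.50, 10.6 and 9.90, and 6.19 and 6.16 FPKM. It fell by 0.65 in SYK-WT (SE 0.17, adjusted p = 0.0268; 0.134 and 0.0961 without SYK-WT EGF replicates 1 and 2) and by 0.65 in SYK-KO cells (adjusted p = 0.0463; 0.084 to 0.211 without either SYK-WT EGF library or any of the 4 SYK-KO libraries). ARID1A fell by 0.37 in SYK-WT cells (adjusted p = 0.0236), a call lost without SYK-WT replicate 2 (0.0599) or SYK-WT EGF replicates 1 (0.116) or 2 (0.107). With only the groups compared in the fit, the SYK-WT calls of EPHA2 (0.111), EDN2 (0.0987) and ARID1A (0.0951) ended. Without a filter on low values, those of EDN2 (0.075 in SYK-WT, 0.115 in SYK-KO cells), ARID1A (0.0584) and SFN in SYK-KO cells (0.0923) did.

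The lists' calls stand beside 14.7% of all tested loci rising and 12.1% falling in SYK-WT cells, and 6.67% and 5.13% in SYK-KO cells, and no difference between lists was tested. The receptors, ligands and signalling genes gave 13 rises and 2 falls of 27 in SYK-WT cells (median 0.21, beside 0.01 over all tested loci) and 9 rises and 1 fall in SYK-KO cells (0.14, beside 0.00). The cancer genes gave 5 rises and 3 falls of 23 in SYK-WT and 5 rises in SYK-KO cells. In transcription and chromatin, 4 rose and 6 fell of 41 in SYK-WT and 2 rose in SYK-KO cells. RNA processing and translation gave 4 rises and 4 falls of 33 in SYK-WT and 1 fall in SYK-KO cells, and metabolic enzymes and transporters 2 rises and 4 falls of 23 and 2 falls. The ubiquitin list gave 4 rises and 3 falls of 20 and then 1 of each, the cell cycle list 3 of each of 18 and then 2 rises, and the mitochondrial list 2 rises of 20 and then 1 fall.

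**Figure D5:**
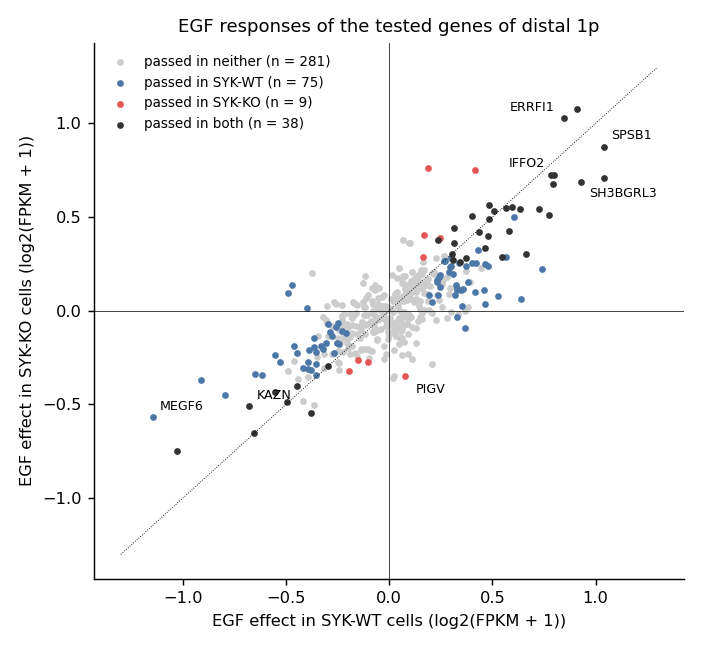
EGF effect in SYK-KO cells (y axis) against that in SYK-WT cells (x axis), both in log2(FPKM + 1), 1 point per tested member, coloured by where limma called the effect, with the dotted line of equal effects. The 38 members called in both genotypes lie near the line, with ERRFI1, SPSB1 and SH3BGRL3 at the upper end, and PIGV lies below 0 in SYK-KO cells only.

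No member passed the test of the difference between the EGF responses by limma (0 higher and 0 lower; 0.0% and 0.00826% of all tested loci). The smallest adjusted p among members was 0.302, for LAPTM5. At an unadjusted p below 0.05 there were 27 members (6.7%), beside 8.83% of all tested loci. Without SYK-WT replicate 1, 10 members passed in each direction, and without any other library none did. The median difference of responses was 0.00 for members and -0.01 for all tested loci, and treated and untreated cells gave a shift of nearly the same size.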

How the data were processed

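Per the submitters' processing notes, TopHat, Cufflinks and Cuffdiff 2.2.1.3 were used with hg19. The deposited table gives FPKM per locus and library, and the authors' q-value for EGF in SYK-WT cells. It holds no counts, so sequencing depth is unknown and no counting error is given. Rows were named from RefSeq (GRCh38.p14), then GENCODE v29, and small RNA rows were left out of all sets but kept in the fit. Loci with at least 1 FPKM in 2 libraries were fitted as log2(FPKM + 1) with limma 3.58.1 (R 4.3.3, trend), 1 mean per group, all 8 libraries sharing the spread. P-values are two-sided and adjusted by Benjamini-Hochberg, threshold 0.05. The script was tested on simulated data.

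Named genes were 6 set genes, the 10 furthest above and below the members' median (at least 5 FPKM), the 8 largest EGF rises and falls per genotype, 6 tested loci on each side of the boundary, and up to 4 most abundant members per list. Some of these genes are not reported here. The members and lists were chosen with earlier results of these data known. Alternatives were other pseudocounts, filters, scaling, the groups compared alone, a replicate block and each library left out.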

Additional observations from a re-analysis of the deposited data

Results flagged for a closer look

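PIGV, an enzyme of GPI anchor synthesis, was picked out because its EGF differences had opposite signs in the genotypes. It was at 7.58 and 7.21 FPKM in SYK-WT, 7.70 and 7.98 in SYK-WT EGF, 6.78 and 6.47 in SYK-KO and 5.03 and 4.93 in SYK-KO EGF libraries. Every treated SYK-WT library was above every untreated one, and every treated SYK-KO library was below. How many of all tested loci do the same was not counted. The SYK-WT difference was 0.07 (limma adjusted p = 0.451). PIGV fell by 0.35 in SYK-KO cells (adjusted p = 0.0164), a call lost without any of the 4 SYK-KO libraries (0.0928 to 0.132). The difference of the responses, SYK-KO minus SYK-WT, was -0.42 (SE 0.097) and did not pass over all loci (limma adjusted p = 0.313).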

How the results depend on the processing

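The shift of the members stayed below 0 under every alternative run. Without a filter on low values it was -0.094 untreated and -0.091 with EGF, both for the median and for its distance from the rest of chromosome 1, with many loci near 0 FPKM entering. With EGF the median was -0.228 and -0.233 at pseudocounts of 0.1 and 0.01, and -0.239 at a mean of at least 5 FPKM. Leaving out each library gave -0.229 to -0.165 untreated (-0.221 to -0.124 against the rest of chromosome 1) and -0.211 to -0.181 with EGF (-0.183 to -0.156).

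The split of chromosome 1 moved to 45.3 Mb without a filter and 82.5 Mb at a mean of at least 5 FPKM untreated, and to 45.7 Mb without a filter with EGF. Leaving out libraries gave 68.7 to 109.6 and 62.2 to 75.2 Mb. It stayed at 75.2 Mb when only the short arm was split, an alternative chosen after seeing the data. The cause of these moves was not tested.

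With only the groups compared in the fit, members past the threshold were 103 lower in untreated SYK-KO against SYK-WT, 27 higher and 9 lower for EGF in SYK-WT, and 38 lower for EGF in SYK-KO cells. Leaving out libraries gave 14 to 45 higher and 89 to 182 lower untreated, and 13 to 35 and 103 to 213 with EGF. For EGF in SYK-WT cells it gave 27 to 86 higher and 9 to 86 lower, in SYK-KO cells 9 to 56 and 0 to 49, and for the difference of the responses 0 to 10 each way. A library left alone in its group is taken to vary like the others. Of 57 EGF calls of named genes, 19 were kept under every alternative, 38 were lost under at least 1 and 0 changed sign.

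With the replicate block, EGF calls were 77 higher and 48 lower in SYK-WT and 41 higher and 18 lower in SYK-KO cells. Same-numbered libraries correlated at -0.381 to 0.270 in their deviations, so the numbers give no pairing, and the block is a check only.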
